A study of Mus musculus with 8 samples.

Results

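The clustered protocadherins are 3 neighbouring gene arrays, Pcdha, Pcdhb and Pcdhg, on mouse chromosome 18. Their members were taken as all protein-coding genes of the GENCODE M21 annotation, on genome build mm10, whose names begin with Pcdha, Pcdhb or Pcdhg. This gave 57 of 21853 coding genes, with 14 in Pcdha, 22 in Pcdhb and 21 in Pcdhg. Chromatin accessibility had been profiled in 8 libraries of SN4741 cells with ATAC-seq, an assay whose transposase inserts sequencing adapters where chromatin is open. SN4741 is a mouse line reported as clonal, made from embryonic substantia nigra of mice that carry a temperature-sensitive T antigen driven by the tyrosine hydroxylase promoter. The labels give its genotype as WT and its cell type as neural precursor. For 4 libraries the cells grew at the permissive temperature (37 °C) in 10% serum, and for 4 they spent 48 h at the non-permissive temperature (39 °C) in 0.5% serum, so temperature and serum cannot be told apart. The karyotyping of the study described the line as polyploid and unstable, so the number of copies of chromosome 18 per cell is a limit of the model and was not measured here.

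Protocadherins are cadherin-type adhesion proteins, and the clustered ones give individual neurons a surface identity by which branches of the same cell recognise and avoid each other. In Pcdha and Pcdhg, every variable exon carries its own promoter and encodes the extracellular part, and it is spliced to constant exons at the end of the array that encode the shared intracellular part. The Pcdhb genes are single-exon genes that do not use shared constant exons. In neurons, most variable promoters are silent in any given cell and a few are chosen, through a process that involves CTCF, cohesin, distant enhancers and DNA methylation. The C-type variable exons, Pcdhac1, Pcdhac2, Pcdhgc3, Pcdhgc4 and Pcdhgc5, lie at the end of the Pcdha and Pcdhg arrays and are regulated differently from the others, which are called alternate exons.

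The deposited data were peak lists, 1 per library, with 54845 to 92013 peaks each, called from 49.8 to 169 M fragments. The lists at 37 °C were longer (74026 to 92013 peaks) than those at 39 °C (54845 to 68410), with no overlap. The deepest libraries were 37 °C replicates 1 and 4, and the shortest list was that of 39 °C replicate 4. A promoter was called in a library when a peak of that library lay within 1 kb of its transcription start site (TSS). All 5 neural progenitor markers (Nes, Sox2, Vim, Pax6, Msi1) and all 4 mesenchymal markers (Col1a1, Col1a2, Twist1, Prrx1) had a promoter peak in all 8 libraries. Over all coding genes, 55.8% had a promoter peak in all 8 libraries and 64.9% in at least 1. Of 6 neuronal markers 3 had a promoter peak in all 8 and 1 (Map2) in none. Of the 4 astrocyte and oligodendrocyte markers 2, and of the 3 blood and microglia markers 2, had none in any library. Among the rest, Syt1 and Sox10 were called in 4 libraries at 37 °C and 3 at 39 °C, and Csf1r in 4 and 2. Rbfox3 and Gfap were called in 1 library at 37 °C and 0 at 39 °C. These are promoter peaks in bulk chromatin, in which fewer cells with an open site and less opening per cell cannot be told apart.

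Most clustered protocadherin promoters had no peak in any library. Of the 57 members, 49 were called in none of the 8 libraries, 8 in at least 1 (14%) and 5 in all 8 (8.77%). Among all 21853 coding genes, 64.9% were called in at least 1 library and 55.8% in all 8, and of the 454 other coding genes of chromosome 18, 346 (76.2%) were called in at least 1. The called members were unevenly spread over the arrays, with 1 of 14 in Pcdha, 1 of 22 in Pcdhb and 6 of 21 in Pcdhg. Of the 5 C-type members 4 were called, against 4 of the 52 others. These counts describe one annotated set of genes and were not tested.

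**Figure D1:**
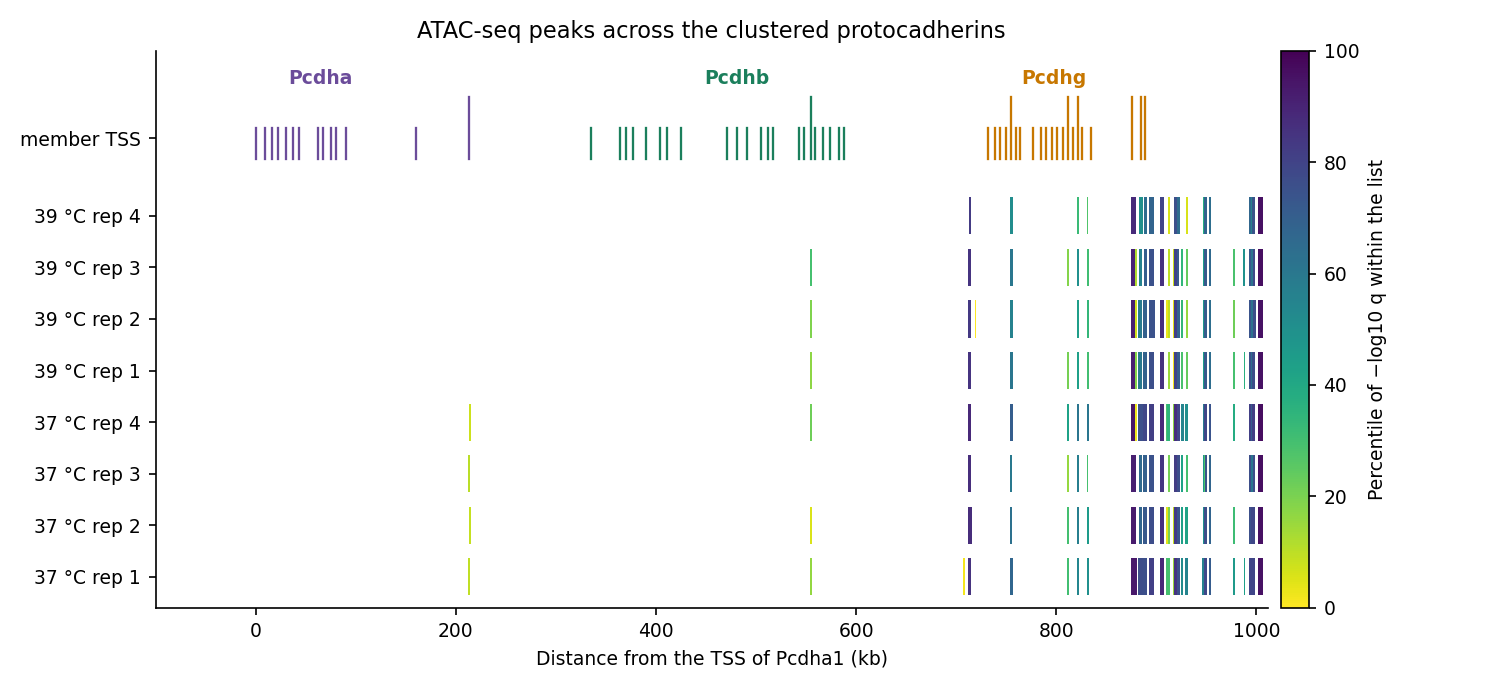
Peaks of the 8 libraries (rows) from 100 kb before the first member to 100 kb after the last, by distance from the TSS of Pcdha1 in kb. Bars are peaks, widened slightly at each side to be visible and coloured by the percentile of their −log10 q within their own list. Ticks above are member TSSs, the tall ones called in at least 1 library. Peaks were few over Pcdha and Pcdhb (0 or 1 per library in each) and dense from the 3′ part of Pcdhg onward.

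In the Pcdha array, 12 of 12 alternate promoters had no peak in any library, namely those of Pcdha1 to Pcdha9, Pcdha12 and the pair of genes that the annotation both names Pcdha11. The first C-type promoter, Pcdhac1, also had none. Pcdhac2, the last variable exon of the array, was the sole Pcdha member with a peak. Its peak, at 37143550 to 37144346 on chromosome 18, lay in the variable exon, with summits 341 to 624 bp after the TSS. Its −log10 q was 6.80, 4.49, 4.53 and 4.99 in 37 °C replicates 1 to 4, and no peak was called at 39 °C. Within each list these values were at percentiles 9.74, 8.75, 10.3 and 7.81, where 0 is the lowest −log10 q of the list and 100 the highest. The peak was therefore weak in every list that held it, with a fold enrichment over the background of the library of 2.09 to 2.92 and a width of 554 to 671 bp.

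Pcdhac2 was the only member called in all 4 libraries at 37 °C and in none at 39 °C, and no member showed the opposite pattern. Across all coding promoters, 1.67% were called in 4 of 4 libraries at 37 °C and in none at 39 °C, and 0.0137% the other way. With Fisher's exact test over all coding promoters, 367 had an unadjusted p below 0.05 and 0 passed after Benjamini-Hochberg adjustment, since 4 libraries against 4 cannot give a p below 0.0286. When every list was reduced to its 54845 strongest peaks, the Pcdhac2 peak was absent from all 8 lists, and with peaks of −log10 q at least 5 it was left in 1 library. The number of Pcdha promoters called per library thus went from 1 in each 37 °C library to 0 in each 39 °C library (exact permutation test, two-sided, p = 0.0286, adjusted p = 0.129 over 9 measures), and this difference was 0 with lists of equal length. The part that list length plays in it was not tested further.

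In the Pcdhb array, Pcdhb17 was the sole member called, and the other 21 had no peak in any library. Pcdhb17 was at percentiles 16.2, 5.64 and 22.2 in 37 °C replicates 1, 2 and 4 and was not called in replicate 3. At 39 °C it was at 17.0, 19.4 and 29.7 in replicates 1 to 3 and was not called in replicate 4. The ranges of the temperatures overlapped, and 3 of 4 libraries called it at each. Its fold enrichment was 2.44 to 2.80 at 37 °C and 3.75 to 5.19 at 39 °C, and its width 312 to 382 bp and 538 to 710 bp. These are values of the libraries that called it, 3 per temperature, and were not tested. With lists of equal length, Pcdhb17 was called in 0 libraries at 37 °C and 3 at 39 °C. The peak lay at 37484805 to 37485514 on chromosome 18, in the single coding exon, with summits 156 to 352 bp after the TSS.

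The Pcdhg array held the other called members. Of its 18 alternate promoters 3 were called, those of Pcdhga4, Pcdhgb6 and Pcdhgb7, which is 1 of 12 of the A type and 2 of 6 of the B type. Pcdhga4 was at percentiles 67.2, 63.1, 59.4 and 70.4 at 37 °C and 60.7, 55.8, 60.5 and 51.2 at 39 °C. Most values at 39 °C were lower, but the ranges overlapped. Its summits lay 98 to 224 bp after the TSS and its peaks were 1013 to 1185 bp wide. Pcdhgb7 was at 54.0, 57.1, 57.5 and 61.2 at 37 °C and 43.5, 44.5, 50.1 and 32.2 at 39 °C, with every 39 °C library below every 37 °C library. Its peaks were narrow in all 8 libraries, between 423 and 473 bp, and the widths at the temperatures overlapped.

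Pcdhgb6 was, with Pcdhac2, 1 of the 2 members of 57 called in fewer libraries at 39 °C, and 0 were called in more. Over all coding promoters 8.37% were called in fewer and 0.448% in more. It was at percentiles 30.4, 29.8, 16 and 42.5 at 37 °C and at 20.9 and 18.7 in 39 °C replicates 1 and 3, with no peak in replicates 2 and 4. Its widths were 553, 545, 476 and 553 bp at 37 °C and 411 and 369 bp at 39 °C, and its percentiles overlapped. The widths at 39 °C rest on 2 libraries and were not tested, and the median width over all promoters called in all 8 libraries was 2107 to 2722 bp at 37 °C and 1867 to 2225 bp at 39 °C. With lists of equal length it was called in 2 libraries at 37 °C and 1 at 39 °C. The 15 alternate Pcdhg promoters with no peak were Pcdhga1 to Pcdhga3, Pcdhga5 to Pcdhga12, Pcdhgb1, Pcdhgb2, Pcdhgb4 and Pcdhgb5.

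All 3 C-type promoters of Pcdhg were called in all 8 libraries and were the widest peaks at member promoters. Pcdhgc3 had the strongest peak of any member in each library, at percentiles 93.4, 92.6, 91.2 and 94.3 at 37 °C and 91.4, 91.7, 90.3 and 88.2 at 39 °C. The ranges overlapped, and the summit lay 8 bp before the TSS in all 8 libraries. Its fold enrichment was 64.0 to 70.4 at 37 °C and 40.7 to 76.2 at 39 °C, and its width 3483 to 4760 bp and 3362 to 3824 bp. The antisense gene BC037039 also has an exon under this peak, so the region is not assigned to Pcdhgc3 alone.

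Pcdhgc4 was at percentiles 76.7, 67.5, 65.7 and 75.6 at 37 °C and 59.5, 59.0, 55.2 and 49.9 at 39 °C. Every 39 °C library was below every 37 °C library, with a mean difference of −15.5 points, while its widths overlapped (2128 to 2668 bp and 2356 to 2734 bp). Pcdhgc5 was at 76.1, 72.5, 69.9 and 78.8 at 37 °C and 68.9, 69.3, 70.4 and 64.5 at 39 °C, where the highest 39 °C value lay just above the lowest 37 °C value. Its widths were 2561, 2396, 2619 and 2787 bp at 37 °C and 2523, 2382, 1586 and 1652 bp at 39 °C, and these overlapped too.

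**Figure D2:**
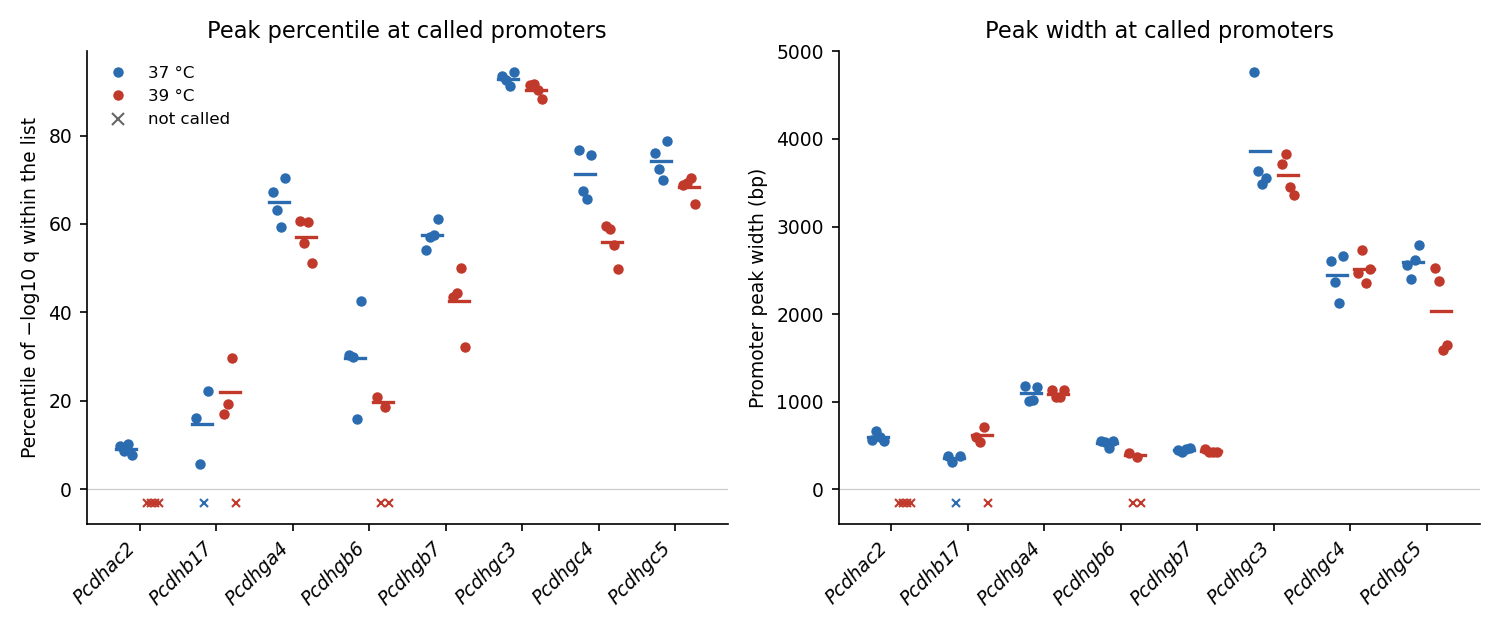
Percentile of −log10 q within the list (left) and width in bp (right) of the promoter peak of the 8 called members, 4 libraries at 37 °C (blue) and 4 at 39 °C (red). Points are libraries in order of replicate, lines are means over the libraries that called the member and crosses are libraries that did not. Pcdhgc3 was highest in every library (88.2 to 94.3), and Pcdhac2 was lowest on average at 37 °C (7.81 to 10.3) and was not called at 39 °C.

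Ordered by mean percentile at 37 °C, the 5 members called in all 8 libraries were Pcdhgc3 (92.9 ± 1.30, SD, n = 4), Pcdhgc5 (74.3 ± 3.93), Pcdhgc4 (71.4 ± 5.56), Pcdhga4 (65.0 ± 4.81) and Pcdhgb7 (57.4 ± 2.91). Pcdhgc3 stood clear of the others, and each of the other neighbours in this order overlapped in range. At 39 °C the order was Pcdhgc3 (90.4 ± 1.59), Pcdhgc5 (68.3 ± 2.59), Pcdhga4 (57.1 ± 4.50), Pcdhgc4 (55.9 ± 4.42) and Pcdhgb7 (42.6 ± 7.51). Pcdhga4 and Pcdhgc4 thus changed places, with overlapping ranges at both temperatures. Apart from Pcdhgc3, these were weak among open promoters. In each library the median over the 5 members was 51.2 to 76.1, against 87.1 to 92.1 over the 12192 coding promoters called in all 8 libraries. The median widths spanned similar ranges, 1586 to 2668 bp for the members and 1867 to 2722 bp for all such promoters.

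The median percentile of the 5 members was 71.3 ± 5.39 at 37 °C and 57.9 ± 4.47 at 39 °C (SD, n = 4 libraries each). Every 39 °C library was below every 37 °C library (exact permutation test, two-sided, p = 0.0286, adjusted p = 0.129). The difference of −13.4 points became −6.12 with lists of equal length, where every 39 °C library was still below every 37 °C library (exact permutation test, p = 0.0286), and −0.878 when ranks were taken among promoters (exact permutation test, p = 0.429). For single members, the difference of 39 °C minus 37 °C was −15.5 points for Pcdhgc4 and −14.9 for Pcdhgb7 (exact permutation test, p = 0.0286 and adjusted p = 0.0536 for both), −7.99 for Pcdhga4 (p = 0.0857, adjusted p = 0.122), −6.06 for Pcdhgc5 (p = 0.0571, adjusted p = 0.0891) and −2.47 for Pcdhgc3 (p = 0.0857, adjusted p = 0.122). Adjustment was over all 12192 promoters, and 0 of them passed 0.05. Even full separation of the temperatures (p = 0.0286, exact permutation test) gave an adjusted p of 0.0536, so none could pass here. With lists of equal length the differences were −8.69 for Pcdhgc4, −2.57 for Pcdhgb7, 2.21 for Pcdhga4, 1.32 for Pcdhgc5 and −0.52 for Pcdhgc3. Only Pcdhgc4 of the 5 was then lower without overlap, beside 15.0% of the 11959 coding promoters called in all 8 of these lists. The median difference over those 11959 promoters was −0.093 points.

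A lower percentile at 39 °C was common to open promoters. Pcdhgb7 and Pcdhgc4, 2 of 5 members, were lower without overlap, and so were 52.7% of the 12192 promoters, against 0.533% that were higher without overlap. Without 37 °C replicate 3, all 5 members and 63.1% of coding promoters were lower without overlap. The median difference over all 12192 promoters was −2.51 points and over the 5 members −7.99 points, that of Pcdhga4. Of these promoters, 15.4% had a more negative difference than Pcdhga4. Medians here are over differences of single promoters, whereas the −13.4 and −0.878 points above compare library medians of the 5 members. When the percentile was taken among these promoters instead of among all peaks, the members' median difference was 0.62 points and that of all promoters 0.38. On that scale none of the 5 members was lower without overlap and 1, Pcdhga4, was higher without overlap (7.61 at 37 °C and 9.46 at 39 °C, difference 1.85 points, exact permutation test p = 0.0286, adjusted p = 0.126). Over all promoters, 10.4% were lower and 12.2% higher without overlap on that scale. The direction for Pcdhga4, Pcdhgb7 and Pcdhgc5 therefore turned when ranks were taken among promoters, as it did for Pcdhga4 and Pcdhgc5 with lists of equal length. That for Pcdhgc3 and Pcdhgc4 did not turn on either scale.

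**Figure D3:**
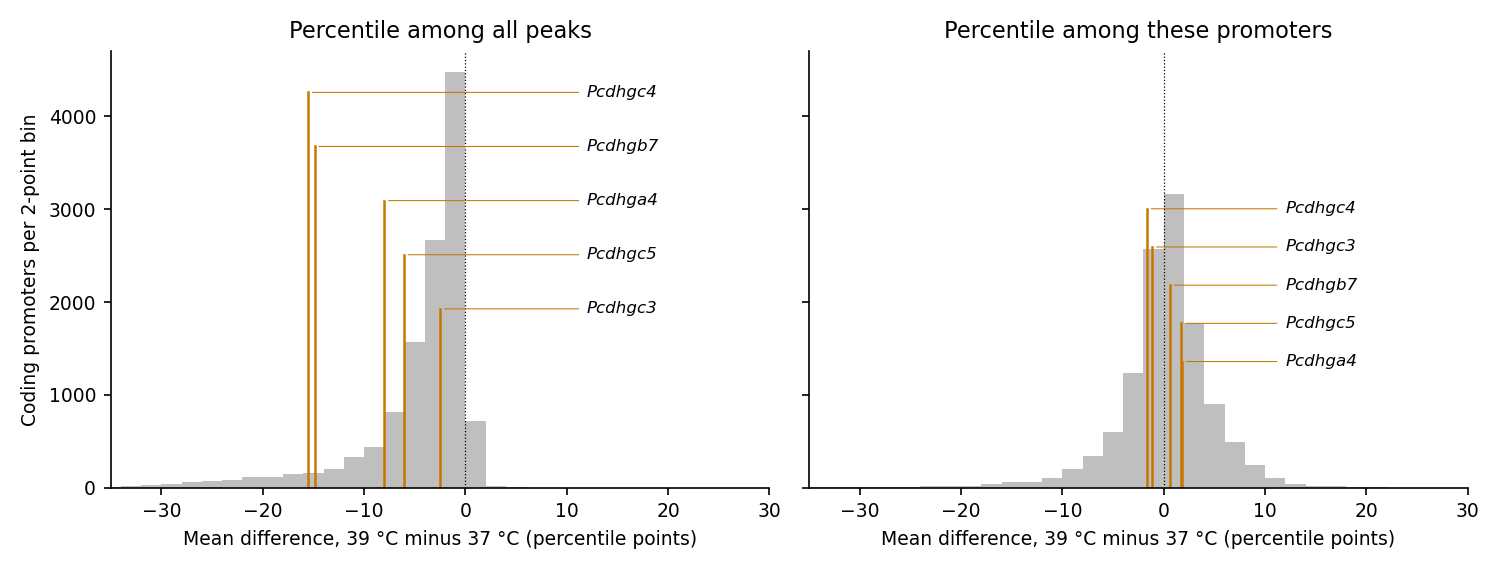
Mean difference in percentile, 39 °C minus 37 °C, for the 12192 coding promoters called in all 8 libraries (grey, promoters per bin) and the 5 members among them (orange lines, whose height only separates the labels). On the left, percentiles are among all peaks of a list and the members lie between −15.5 and −2.47. On the right, they are among these promoters, and the members lie on both sides of 0.

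The number of member promoters called was 8, 8, 7 and 8 at 37 °C and 7, 6, 7 and 5 at 39 °C (means 7.75 ± 0.50 and 6.25 ± 0.96, exact permutation test, two-sided, p = 0.0857, adjusted p = 0.257). The ranges met at 7, and with lists of equal length the difference turned to 0.5 more promoters at 39 °C (exact permutation test, p = 0.657). Per array, Pcdhb counts had the same mean at both temperatures (exact permutation test, p = 1), and the Pcdhg count was 6 in every library but 39 °C replicates 2 and 4, which had 5 (p = 0.429). The median promoter peak width of the 5 members was 2432 ± 237 bp at 37 °C and 2024 ± 469 bp at 39 °C (exact permutation test, p = 0.229), with overlapping ranges.

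Sequence around the TSS was compared with what the peaks showed, using RefSeq GRCm38.p6, the assembly that mm10 represents. From 250 bp before to 50 bp after the TSS, the median GC content of the members was 39.7%, against 55.7% over all coding promoters. The called members ranged from 36.7% to 63%, and Pcdhgc3 was the highest of all 57. Of 6868 coding promoters under 50% GC, 26% were called in at least 1 library, and of the 53 members under 50%, 5 were (9.43%). At 50% GC or more, 82.8% of coding promoters and 3 of 4 members were called, the exception being Pcdhac1, with 60.7% GC and no peak. The part of GC content in the absence of peaks was not tested.

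**Figure D4:**
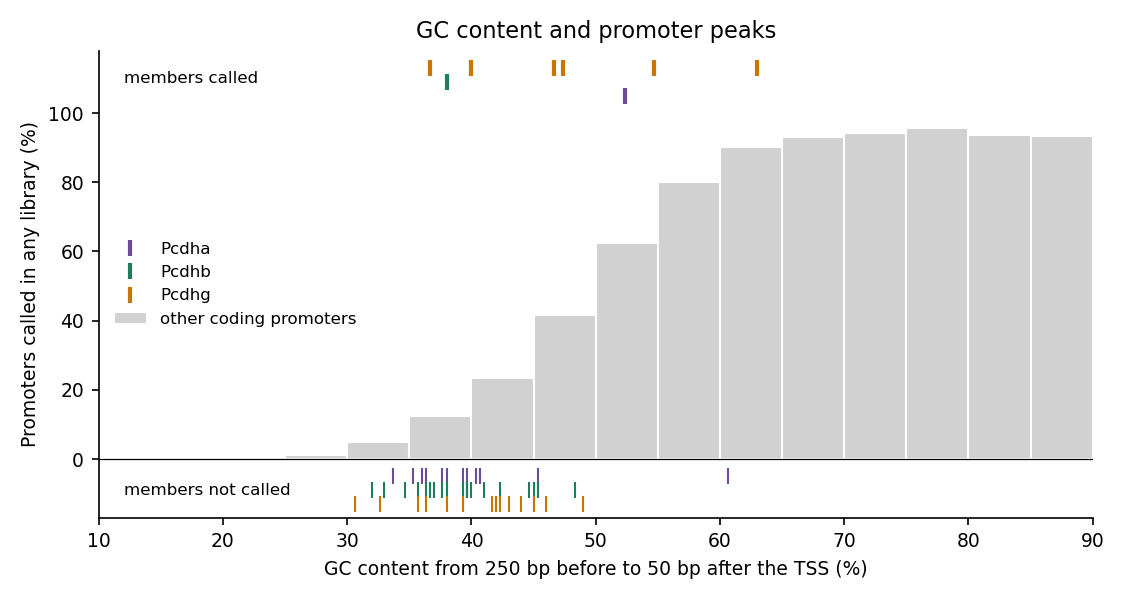
Share of coding promoters that are not members called in at least 1 library (grey bars, %), by GC content of the promoter in bins of 5 percentage points. Ticks above the bars are the 8 called members and ticks below the 49 not called, by array. Bins with fewer than 20 promoters are left out. All uncalled members but Pcdhac1 lie under 50% GC, where 26% of coding promoters were called.

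The CTCF consensus, written as 12 letters with some of them ambiguous, was searched on both strands within 1 kb of each TSS. An exact match stood near 6 of 14 Pcdha members (42.9%), near 0 of 22 in Pcdhb and 0 of 21 in Pcdhg, and near 1.70% of all coding promoters. The 6 were Pcdha1, Pcdha4, Pcdha6, Pcdha7, Pcdha8 and Pcdha12, all alternate exons with no peak in any library. With 1 mismatch allowed, the shares were 71.4% in Pcdha, 4.55% in Pcdhb, 9.52% in Pcdhg and 20.7% of all coding promoters. From 250 bp before to 50 bp after the TSS, no member had an exact match. With 2 mismatches allowed there, the shares were 35.7% in Pcdha, 36.4% in Pcdhb, 14.3% in Pcdhg and 31.2% of all coding promoters. A match is a description of letters and no measure of binding. As a measure of read placement, 82.1% to 100% of the 50-base sequences starting within 1 kb of a member TSS occurred once in the genome (median 98.8%). The range was 95.7% to 100% for called members (median 100%) and 82.1% to 100% for the others (median 96.3%). The lowest values were at Pcdha7 and Pcdha6. The part of read placement in the absence of peaks was not tested.

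The window from 100 kb before the first member to 100 kb after the last measured 1112 kb and held 28 merged regions, of which 26 were consensus regions, called in at least 2 libraries. Stretches without a peak in any library were 340.5 kb between the Pcdhac2 and Pcdhb17 peaks, which held 16 uncalled Pcdhb promoters, and 339.8 kb ending at the Pcdhac2 peak, which began before the window and held 13 uncalled Pcdha promoters. Of 84756 gaps between neighbouring consensus regions genome-wide, 1.23% and 1.24% were at least as long as these, and the median gap was 6.66 kb. A stretch of 55.8 kb without a peak between Pcdhga4 and Pcdhgb6 held 8 Pcdhg promoters. After the Pcdhb17 peak, 157 kb without a consensus region held 5 Pcdhb promoters, with 1 peak there, at the Slc25a2 promoter in 37 °C replicate 1. The distance from an uncalled member TSS to the nearest region was 3560 to 169748 bp, with a median of 49184 bp.

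Open chromatin regions were instead gathered at the 3′ end. Per library, 8 to 11 peaks lay in the 181 kb of the Pcdhg array and 11 to 15 in the 100 kb after its last exon, in or near Diaph1, a formin gene that runs toward Pcdhg from the other strand. In total 24 to 28 peaks were called in the window at 37 °C and 20 to 27 at 39 °C (exact permutation test, two-sided, p = 0.83), and they covered 3.56% ± 0.44 and 3.20% ± 0.34 of it (p = 0.286). Set against its own list, the window was covered less than the genome in all 4 libraries at 37 °C (4.04%, 3.45%, 3% and 3.76%, against 4.89%, 3.77%, 3.29% and 4.7%) and more in all 4 at 39 °C (3.49%, 3.46%, 3.08% and 2.76%, against 3.27%, 3.12%, 2.97% and 2.4%). Peaks per Mb were fewer in the window than across the genome in all 4 libraries at 37 °C (21.6 to 25.2 against 27.2 to 33.8). At 39 °C they were 24.3, 24.3, 24.3 and 18 in the window against 24.1, 23.9, 25.1 and 20.1 across the genome, more in replicates 1 and 2 and fewer in replicates 3 and 4. The difference between window and genome was not tested.

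Of the 28 regions 17 were distal, that is, more than 1 kb from the TSS of any coding gene, and 12 of these were called in all 8 libraries. Distal regions called per library numbered 16, 15, 13 and 15 at 37 °C and 16, 16, 16 and 12 at 39 °C (exact permutation test, two-sided, p = 1). The strongest by mean percentile lay at 37834758 to 37837598 on chromosome 18, in the intron between the second and the last constant exon of Pcdhg. It was at percentiles 88.8, 86.1, 84.4 and 88.7 at 37 °C and 85.9, 86.7, 85.8 and 79.9 at 39 °C, with overlapping ranges, and was above every member promoter but Pcdhgc3 in each library. The next, at 37848709 to 37851015 in a Diaph1 intron, was at 82.2 to 86.7 at 37 °C and 75.7 to 80.9 at 39 °C, without overlap. Another, at 37823564 to 37828139, spanned the first constant exon of Pcdhg and was at 74.7 to 81.6 and 68.1 to 76.0, with overlap.

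No distal region of the window was called in all 4 libraries of one temperature and none of the other. Pcdhac2 made up the 1 restricted region of the window's 26 consensus regions (3.85%), and genome-wide 6.04% of 84777 consensus regions were restricted to 37 °C and 0.314% to 39 °C. All 12 distal regions called in all 8 libraries had a lower mean percentile at 39 °C, with differences of −27.0 to −2.39 points. In 7 of the 12 the temperatures did not overlap, and 0 were higher without overlap. Of all 44861 regions called in all 8 libraries genome-wide, promoters included, 54.2% were lower and 0.798% higher without overlap. The share among distal regions alone was not computed genome-wide.

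One region, named after its values were seen, covered the start of Pcdhgb8, an alternate exon that the annotation lists as a polymorphic pseudogene and that is therefore not a member. This region, at 37761316 to 37762020 on chromosome 18, was called in all 8 libraries. It was at percentiles 50.3, 45.7, 29.3 and 60.8 at 37 °C and 30.1, 33.7, 30.5 and 27.5 at 39 °C. It overlapped between temperatures through 37 °C replicate 3, and lay below Pcdhgb7, its called neighbour, in each library.

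**Figure D5:**
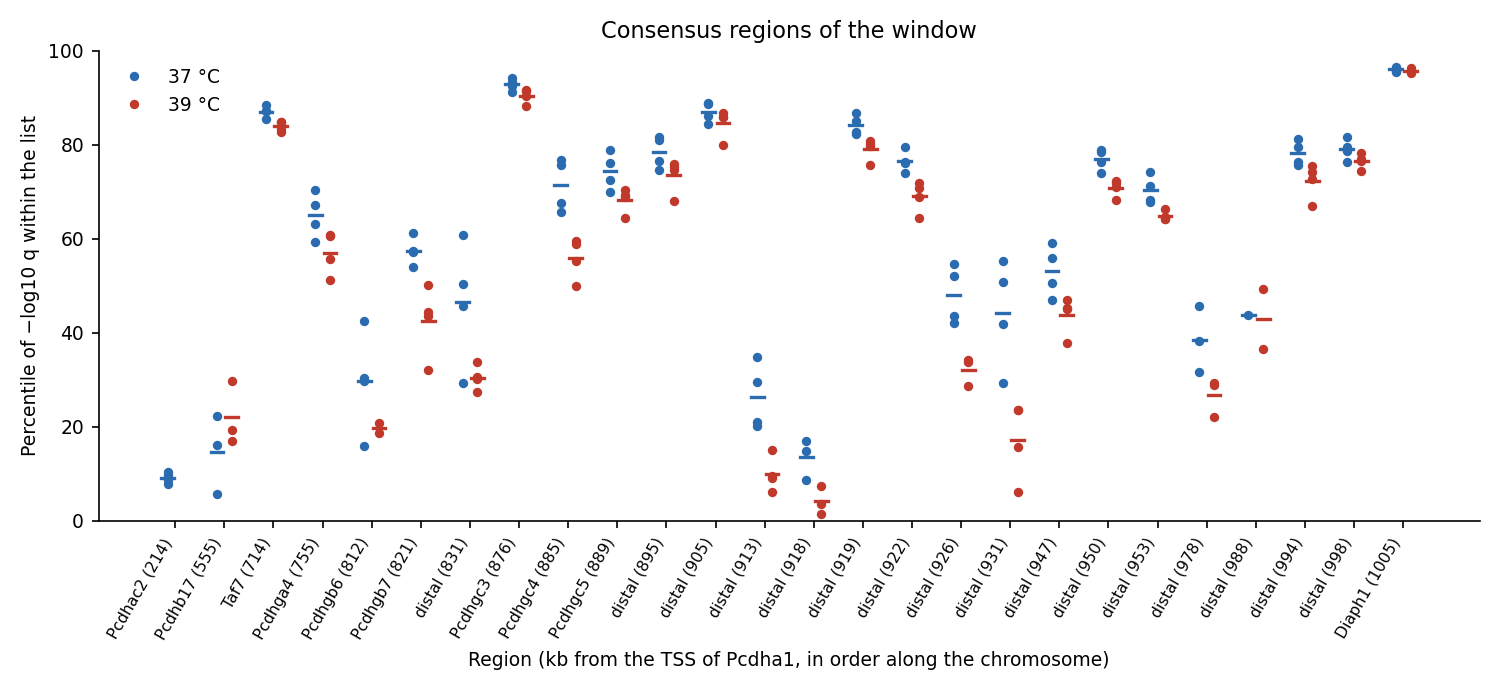
Percentile of −log10 q within the list for the 26 consensus regions of the window in order along the chromosome, with the distance from the TSS of Pcdha1 in kb. Points are libraries at 37 °C (blue) and 39 °C (red) and lines are means over the libraries that called the region. Pcdhgc3, the Taf7 and Diaph1 promoters and the distal region between constant exons of Pcdhg had the highest percentiles, and the red means lay below the blue ones in all but Pcdhb17 among regions called at both temperatures.

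Related genes are given beside the shares over all coding genes, 64.9% called in at least 1 library and 55.8% in all 8. Of 12 protocadherin genes outside the clusters, which are encoded singly on several chromosomes, 9 were called in at least 1 library and 6 in all 8, which is close to those shares (75% and 50%). The 6 were Pcdh1, Pcdh7, Pcdh10, Pcdh17, Pcdh18 and Pcdh19. Pcdh8, Pcdh11x and Pcdh20 were called in none. Of 18 genes for promoter choice and silencing, among them Ctcf, the cohesin genes Rad21, Smc1a and Smc3, the cohesin release factor Wapl, the DNA methyltransferase Dnmt3b, which methylates alternate promoters early in development, and the silencing factors Smchd1 and Setdb1, 17 were called in all 8 libraries. The exception was Tet1, an enzyme that oxidises methylated cytosine, which was called in none. All 10 genes for signalling partners, such as the kinases Fyn, Ptk2 and Ptk2b and the actin regulators Wasf1 and Cyfip1, were called in all 8 libraries. Promoter peaks of these genes were not compared with protein level or activity, which were not measured in these libraries.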

How the data were processed

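SN4741 cells were profiled by ATAC-seq in 4 libraries at 37 °C and 4 at 39 °C, with 50000 cells per aliquot and 12 cycles of amplification. Per the submitters' processing notes, Bowtie2 2.4.1, SAMtools 1.15.1, Picard 2.26.11, MACS3 3.0.0a7 and bedtools 2.30.0 were used with build mm10. Per the file headers, the authors called peaks in each library alone, at a q-value of 0.05, with no control library and no local background. In the deposited lists a peak has a position, a width, a summit, −log10 values of the p-value and the q-value, a fold enrichment, which is a ratio to one background per library, and a pileup signal in fragments that is not scaled for depth. The pileup was not used here. Read counts per region are not among these columns, so the differential count test that the study's methods describe was not run.

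Peaks of each library were ranked by −log10 q within their list (midranks, 0 to 100). Promoters ran 1 kb to each side of the TSS of the principal coding transcript in GENCODE M21. Peaks overlapping by 1 bp or more were merged, and regions called in 2 or more libraries were consensus regions. Where a promoter had several peaks, the highest percentile and the largest width were used. Temperatures were compared by exact permutation of the 8 libraries (70 assignments, two-sided, smallest possible p 0.0286), with Benjamini-Hochberg adjustment over the 9 measures per library or over all promoters. Presence was tested over all coding promoters by Fisher's exact test. Nothing states that the libraries came from separate cultures, so p-values measure the spread between libraries, which may be technical. Depth was taken from the header of each list and ran from 49.8 to 169 M fragments kept.

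Replicate numbers were not treated as pairs, since same-numbered libraries did not deviate together (r = 0.29, −0.04, −0.12 and −0.49 for replicates 1 to 4). Values in every library are given for the C-type members, for members whose number of calling libraries differed by 2 or more, for members called in 1 to 3 libraries and for the 2 highest and 2 lowest of each array among those called in all 8. Pcdhga4 to Pcdhgc5 and Pcdhb17 are also given so that every called member has its values. Members called in none are named only. The members, lists and tests were chosen with earlier results of these data known. Alternatives were peaks of −log10 q at least 2 or 5, equal numbers of peaks, promoters of 500 bp or 2 kb and peaks covering 50% of a region. Others were a summit within the promoter, any coding TSS of the gene, a window without flanks, libraries left out and a replicate block. The percentile among promoters was chosen after seeing the data, and the count of members lower at 39 °C without overlap was not planned either. Analyses used Python 3.11.15, NumPy 2.4.6, pandas 2.3.3, SciPy 1.17.1 and pysam 0.24.0. Other assays of the study were not analysed here.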

Additional observations from a re-analysis of the deposited data

Results flagged for a closer look

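Some libraries stood apart from the others of their temperature by the gap between the extreme library and its neighbour, relative to the range of the 4. Chance marks about 1 in 20 groups in this way, and 42 groups were tested. Counts of 0 or 1 and other small whole numbers are marked easily, since 3 equal libraries and 1 other always pass. The number of member promoters called was 7 in 37 °C replicate 3 and 8 in each of the other 3 libraries. The difference was Pcdhb17, so that the number of Pcdhb promoters called was 0 in 37 °C replicate 3 and 1 in the others. The number of Pcdhb promoters called was also 0 in 39 °C replicate 4, against 1 in the other 3.

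Peaks in the window around the clusters numbered 20 in 39 °C replicate 4, against 27 in each of the other 3 libraries at 39 °C, and distal regions called numbered 12 there, against 16. That library had the shortest list (54845 peaks). The Pcdhgb6 peak was 476 bp wide in 37 °C replicate 3 and 545 to 553 bp in the others, and that library was the least deep of the 8 (49.8 M fragments). The Pcdhgc3 peak was 4760 bp wide in 37 °C replicate 1, the deepest library (169 M fragments), and 3483 to 3633 bp in the others. The part of depth in these values was not tested.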

How the results depend on the processing

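Of 187 alternative values, 149 kept their direction and their side of the threshold (or, for counts, stayed within 1.5 times). They include those for Pcdhb promoters called, whose difference of 0 has no direction and which took both signs (−0.25 to 0.75) without passing the threshold. The difference in percent of the window covered, −0.364, was −0.551 without 37 °C replicate 3, −0.205 without 37 °C replicate 1, −0.219 without 39 °C replicate 4, −0.213 without the flanks, −0.176 with equal numbers of peaks and −0.028 without 37 °C replicates 1 and 4, past the threshold in none. The difference in median promoter peak width, −408.5 bp, was −226 bp without 37 °C replicates 1 and 4. With 1 library left out it was −559 to −263 bp, past the threshold in none. The difference in Pcdha promoters called was −0.25 with peaks of −log10 q at least 5, 0 with equal numbers of peaks and −1 (p = 0.133, exact permutation test) without 37 °C replicates 1 and 4. It was −1 in each set that left out 1 library (p = 0.0571, exact). The median percentile of the 5 members differed by −8.78 without 37 °C replicates 1 and 4 (p = 0.133, exact), by −0.878 when ranked among promoters (p = 0.429, exact) and by −15.2 to −11.2 with 1 library left out (p = 0.0571, exact). With the replicate number as a replicate block, these differences were −1 and −13.4 (p = 0.125, exact, for both), and it changed no other call. The smallest p these designs allow is 0.133 for 2 libraries against 4, 0.0571 for 3 against 4 and 0.125 for the block, so the threshold could not be passed in them. Differences that had missed the threshold turned sign. Member promoters called differed by 0.5 with equal numbers of peaks. Peaks in the window differed by 1.25 with equal numbers of peaks, by 0.25 without 37 °C replicates 1 and 4, and by −1.75 to 0.75 with 1 library left out (0.75 without 39 °C replicate 4). Distal regions called differed by −0.75 with −log10 q at least 5, by −1 with peaks covering 50% of a region (p = 0.514, exact), and by −0.333 to 1.25 with 1 library left out. The 1 member restricted to 37 °C became 0 with −log10 q at least 5 and with equal numbers of peaks. Members lower at 39 °C without overlap numbered 2, but 1 with equal numbers of peaks, 0 when ranked among promoters and 5 without 37 °C replicate 3 (63.1% of all coding promoters there). Apart from the shorter lists and fewer libraries that these alternatives use, the cause was not tested. Lists of peaks past a threshold cannot show signal below it, so an uncalled promoter is one in which no peak was detected at this depth, not one shown to be closed.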
